A study of Mus musculus with 3 samples.

Results

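The genes described here are interferon-stimulated genes, a set of 39 symbols chosen by name and kept where at least 20 UMIs (unique molecular identifiers, each marking 1 captured RNA molecule) were counted over the 3 heart sections of the series. The floor left 38 genes of the 13883 that reached it among 32285 genes in the files. Mx1 had no row, and every other symbol passed. The gene nearest the floor was Cxcl10 with 94 UMIs, the highest was Ifitm3 with 15961, and the median of 611 UMIs was close to the median of 636 over all 13883 genes. Each section came from the heart of 1 C57BL/6 mouse, and all 3 mice received a gavage for 7 days before surgery. The sham mouse received vehicle, and the needle was passed with no ligation. The I/R mouse received vehicle, and its left anterior descending coronary artery was tied for 30 min and then reopened for 24 h. The SBP mouse received Shexiang Baoxin Pill, labelled MUSKARDIA, in place of vehicle, followed by the same ischemia and reperfusion. The labels give no age or sex.

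Type I interferons (alpha and beta) and interferon gamma act through cell surface receptors, Janus kinases and STAT proteins. A complex that holds Stat2 and Irf9 binds the interferon-stimulated response element (ISRE) of target genes, and the gamma-activated site (GAS) is the element known for interferon gamma. The targets include antiviral enzymes, membrane proteins that block virus entry or release, GTPases that attack intracellular vacuoles, chemokines, and the sensors and factors that renew the response. In the injured heart, macrophages that take up DNA of dying cells are known to start such a response through cGAS, STING and Irf3.

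The promoters were searched for the letters of both elements. RefSeq windows of 300 bases (250 before and 50 after the start site, GRCm38.p6) were at hand for 30 of the 39 symbols. The ISRE was searched as GAAA, 2 bases of any kind and GAAA, and the GAS as TTCNNNGAA, with N for any base and both strands read. At least 1 ISRE match stood in the windows of 19 of the 30 genes (63.3%), beside 3.99% of 27025 symbols with a window. A GAS match stood in 8 of the 30 genes (26.7%), beside 9.55% of all symbols. Both patterns were found in 5 genes, and they overlapped in Bst2 and Ifitm3. All 5 GTPase genes with a window (Gbp2, Gbp3, Gbp7, Igtp and Irgm1) held an ISRE match, as did 8 of 12 genes that were higher in I/R than in sham and 11 of 18 that were not. These matches are letters in a window and were not tested as binding sites.

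The stretches of 60 bases below were chosen to show 1 or more ISRE matches in effectors, a membrane factor, GTPases and a chemokine, and capitals mark the matched letters. Isg15 lies on the minus strand at chr4:156200856-156200915 and holds 3 matches that overlap each other, and the 2 matches in Oas1a and in Bst2 overlap as well. Ifit1 lies on the plus strand at chr19:34640769-34640828. Ifit3 and Ifit3b, also on the plus strand, are shown from chr19:34583365-34583424 and chr19:34607761-34607820, and their stretches hold the same letters. Oas1a lies on the minus strand at chr5:120907508-120907567, and its stretch crosses the start site. Rsad2 lies on the minus strand at chr12:26456538-26456597, and Bst2 on the minus strand at chr8:71537565-71537624. Gbp2 lies on the plus strand at chr3:142620579-142620638, and Igtp on the plus strand at chr11:58199497-58199556. Cxcl10 lies on the minus strand at chr5:92349068-92349127.
Isg15: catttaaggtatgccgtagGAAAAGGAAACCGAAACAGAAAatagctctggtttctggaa
Ifit1: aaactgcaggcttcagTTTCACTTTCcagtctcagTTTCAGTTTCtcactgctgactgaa
Ifit3: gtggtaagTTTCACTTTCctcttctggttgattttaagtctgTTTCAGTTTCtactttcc
Ifit3b: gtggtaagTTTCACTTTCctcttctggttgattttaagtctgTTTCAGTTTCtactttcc
Oas1a: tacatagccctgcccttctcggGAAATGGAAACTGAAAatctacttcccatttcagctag
Rsad2: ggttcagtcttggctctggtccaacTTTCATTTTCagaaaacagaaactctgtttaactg
Bst2: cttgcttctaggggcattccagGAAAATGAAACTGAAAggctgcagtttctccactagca
Gbp2: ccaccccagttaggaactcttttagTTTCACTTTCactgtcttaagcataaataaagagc
Igtp: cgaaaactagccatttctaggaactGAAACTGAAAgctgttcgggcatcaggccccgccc
Cxcl10: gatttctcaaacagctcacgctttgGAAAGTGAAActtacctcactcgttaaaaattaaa

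The sections held 1960 to 2234 spots after those in which under 200 genes were detected had been dropped, and each spot is a small region that can hold several cells. Total UMIs were 25118258, 30238530 and 21631280 in sham, I/R and SBP, and 44.3% to 48.6% of them were mitochondrial. The 3 sections shared 1093 spot barcodes, which mark slide positions and not cells. Levels are given as UMIs per 1000000 UMIs of the section (CPM), and ratios on the log2 scale with 95% intervals that cover counting error only. A gene is called higher or lower where the ratio was at least 1.5-fold and the interval left out a ratio of 1. With 1 section for each condition there is no test between conditions, and the condition, the mouse and the section cannot be told apart. Fewer cells of a type and less RNA per cell cannot be told apart either. The I/R section serves in 2 comparisons and so does sham, so the comparisons are not independent.

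In I/R vs. sham, 17 of the 38 genes (44.7%) were higher and 0 were lower, beside 22.1% and 3.38% of all genes. The ratio was above 1 for 33 genes (86.8%), beside 69.9% of all genes. The median log2 ratio of the members was 0.48, while the median of all genes was itself at 0.24. Scaled by TMM (trimmed mean of M-values) factors, which moved the median of all genes to 0.01, 11 members stayed higher (28.9%, beside 12.7% of all genes), Cxcl9 became lower (2.63%, beside 8.54%) and the median of the members was 0.25. These 11 were Irf7, Zbp1, Isg15, Ifit2, Oas1a, Usp18, Xaf1, Trim30a, Bst2, Ifitm1 and Cxcl10. The kinds of genes differed in their counts. The higher genes were 4 of 8 transcription factors and sensors, 9 of 18 antiviral effectors and regulators, 3 of 4 membrane restriction factors, 0 of 6 GTPases and 1 of 2 chemokines.

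Among the transcription factors, Irf7, which amplifies the type I interferon response, stood at 5.85, 10.6 and 10.96 CPM in sham, I/R and SBP. Both injured sections were above sham, with a log2 ratio of 0.86 (0.58 to 1.16) for I/R and 0.90 (0.60 to 1.21) for SBP. Irf9, the DNA-binding partner of Stat2, read 12.5, 16.4 and 14.6 CPM in sham, I/R and SBP. Stat2 read 5.22, 7.34 and 6.93 CPM in the same order. Irf1, a factor induced mainly by interferon gamma, read 9.95, 12.1 and 10.4 CPM. These 3 genes had ratios of I/R over sham above 1 but below 1.5-fold, at 0.38, 0.49 and 0.28 on the log2 scale.

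The sensors were uneven. Zbp1, which detects nucleic acids in the Z form, had 32, 96 and 62 UMIs in sham, I/R and SBP, or 1.27, 3.17 and 2.87 CPM. Its log2 ratio over sham was 1.32 (0.73 to 1.94) in I/R and 1.17 (0.53 to 1.83) in SBP. Ddx58, which encodes the RNA sensor RIG-I, read 4.66, 7.08 and 5.46 CPM, and Dhx58, a regulator of the same sensors, read 2.03, 3.24 and 2.31 CPM. Both were higher in I/R than in sham, by 0.60 and 0.67, and under TMM factors their ratios of 0.37 and 0.44 were below 1.5-fold. Ifih1, which encodes the RNA sensor MDA5, went the other way without being called, from 6.13 CPM in sham to 5.62 in I/R and 5.13 in SBP.

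The largest ratios among the antiviral effectors belonged to genes with few UMIs. Ifit2, which binds viral RNA, had 15, 73 and 25 UMIs in sham, I/R and SBP, or 0.60, 2.41 and 1.16 CPM, and I/R was above sham by 2.02 (1.20 to 2.92). Oas1a, an enzyme that activates RNase L, read 1.43, 4.60 and 2.87 CPM and was higher in I/R by 1.68 (1.14 to 2.25). Of the 50-base stretches in the last 500 bases of its transcripts, 56.1% also occur in Oas1g, so its level is uncertain where reads fell there. Isg15, a ubiquitin-like modifier, stood at 4.78, 10.1 and 8.23 CPM in sham, I/R and SBP. Its log2 ratio over sham was 1.07 (0.76 to 1.39) in I/R and 0.78 (0.44 to 1.13) in SBP. Usp18, which removes Isg15 and restrains the receptor, read 1.79, 3.60 and 2.40 CPM, with 1.01 (0.50 to 1.54) for I/R over sham. Trim30a, a regulator of Toll-like receptor signalling, read 7.37, 14.8 and 10.2 CPM, with 1.01 (0.75 to 1.26), and it shares 19.9% of its end stretches with Trim30d.

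Xaf1, a proapoptotic protein, read 5.89, 10.5 and 7.54 CPM, and Rtp4, a receptor transporter with antiviral activity, read 7.48, 12.0 and 8.69 CPM. Oas2, a further enzyme of the OAS family, read 2.83, 4.40 and 3.05 CPM. These 3 genes were higher in I/R than in sham by 0.83, 0.69 and 0.64. Ifit3b read 1.47, 2.38 and 3.24 CPM and was higher by 0.69 (0.10 to 1.31). Under TMM factors the ratios of Rtp4, Oas2 and Ifit3b were below 1.5-fold.

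The other 9 effectors had ratios of I/R over sham between 0.09 and 0.56 on the log2 scale and were not called. Ifit1, which binds viral RNA, read 4.74, 6.42 and 8.09 CPM in sham, I/R and SBP. Ifit3, its partner, read 4.26, 5.49 and 8.09 CPM. Rsad2, which encodes viperin, an enzyme that makes a chain terminator of viral RNA synthesis, read 7.88, 8.76 and 11.4 CPM. All 3 stood highest in the SBP section. Oasl2 read 6.37, 9.39 and 8.14 CPM, Ifi44 3.42, 3.64 and 3.14 CPM, and Parp14 8.44, 10.6 and 9.20 CPM. Ifi35 read 16.8, 23.2 and 23.5 CPM, Ifi27 31.9, 42.9 and 37.8 CPM, and Lgals3bp, a secreted glycoprotein, 35.7, 43.6 and 34.9 CPM. Of these last 6 genes, Oasl2 came nearest to the 1.5-fold limit in I/R vs. sham.

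**Figure D1:**
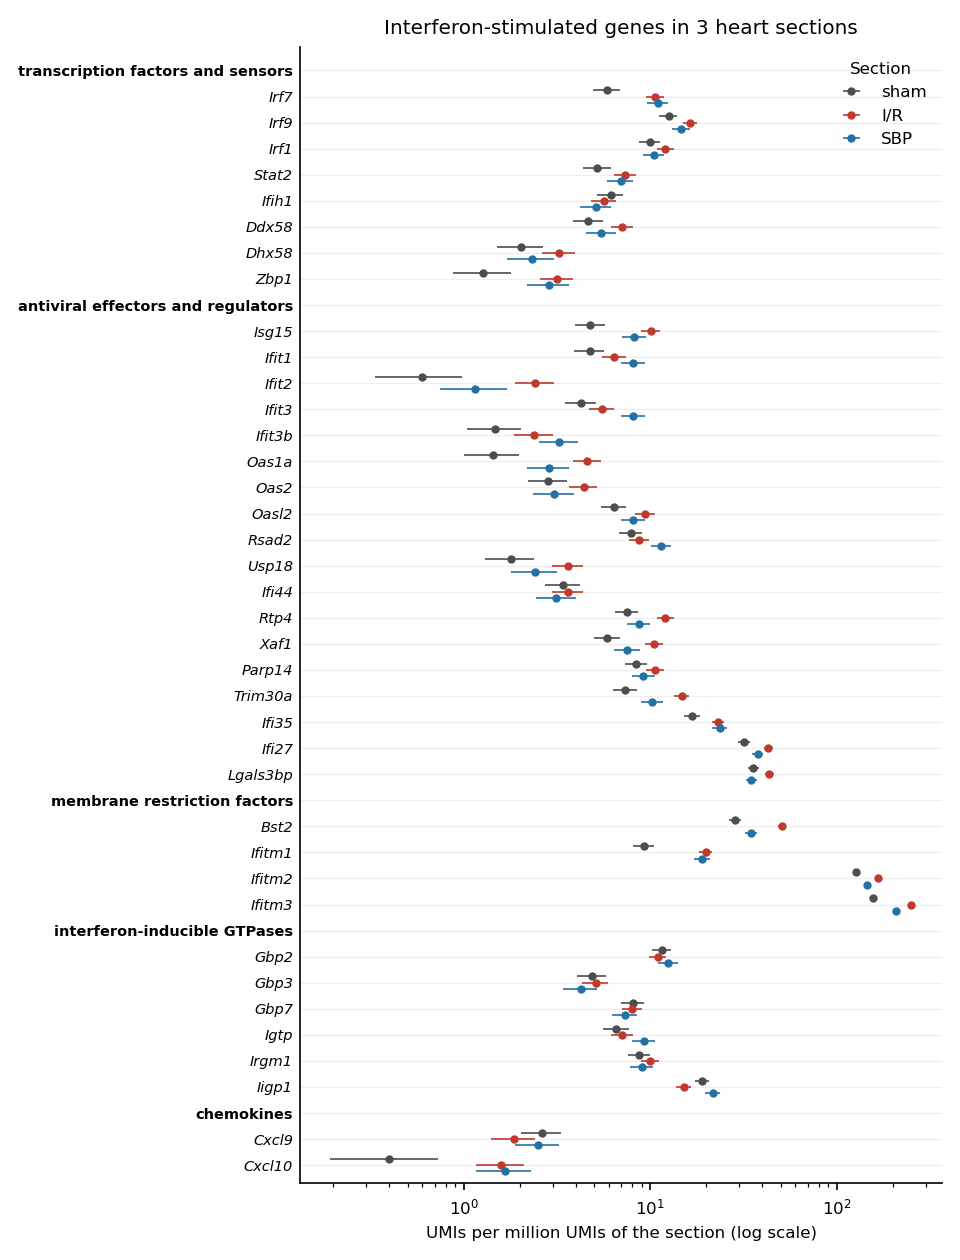
Level of each of the 38 interferon-stimulated genes (rows, grouped by kind) in the sham, I/R and SBP sections, in UMIs per 1000000 UMIs of the section on a log axis. Points are section levels and bars are 95% exact Poisson intervals, and the injured sections lie to the right of sham for most effectors and membrane factors, such as Isg15 at 4.78, 10.1 and 8.23, while the 3 sections lie close together for GTPases such as Gbp7 at 8.04, 8.003 and 7.30.

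The membrane restriction factors rested on the most UMIs of the set. Bst2 (tetherin), which holds budding virus at the cell surface, stood at 28.6, 51.1 and 34.8 CPM in sham, I/R and SBP, with 0.84 (0.71 to 0.97) for I/R over sham. Ifitm3, which blocks fusion of virus with endosomes, stood at 156, 250 and 207 CPM, with 0.68 (0.63 to 0.74). Ifitm1 stood at 9.24, 19.8 and 18.9 CPM and was near its I/R level in SBP, at 1.103 (0.88 to 1.33) in I/R and 1.03 (0.80 to 1.27) in SBP over sham. Ifitm2 stood at 126, 166 and 145 CPM and missed the limit at 0.40 (0.33 to 0.46). All 4 were above sham in I/R under each scaling, and under TMM factors the ratio of Ifitm3 fell below 1.5-fold, at 0.45. The IFITM genes share end stretches with one another or with predicted genes, 41.9% of them for Ifitm2, 14.0% for Ifitm3 and 11.8% for Ifitm1, so their levels are uncertain to that extent. For Ifit3 the share was 14.9%, all of it with Ifit3b.

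The interferon-inducible GTPases, which are known mainly as targets of interferon gamma, did not follow. Their median log2 ratio of I/R over sham was 0.03, below the 0.24 of all genes, and with TMM factors the ratios of all 6 were below 1. Gbp2 read 11.5, 10.98 and 12.5 CPM in sham, I/R and SBP, Gbp3 4.86, 5.09 and 4.25 CPM, and Gbp7 8.04, 8.003 and 7.30 CPM. Irgm1 read 8.76, 10.0 and 9.01 CPM, and Igtp 6.57, 7.04 and 9.25 CPM. Iigp1 read 19.0, 15.1 and 21.6 CPM, so that I/R was the lowest section, with -0.33 (-0.51 to -0.14) over sham and an SBP over I/R ratio of 0.51 (0.32 to 0.70).

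The 2 chemokines of the set bind the same receptor, Cxcr3, and were uneven. Cxcl10 had 10, 48 and 36 UMIs in sham, I/R and SBP, or 0.40, 1.59 and 1.66 CPM, and was higher over sham in I/R by 1.995 (0.99 to 3.14) and in SBP by 2.06 (1.02 to 3.24). Cxcl9 had 66, 56 and 54 UMIs, or 2.63, 1.85 and 2.50 CPM, and its ratio of I/R over sham was -0.50 (-1.04 to 0.03). Cxcl10 thus had few UMIs in sham, while Cxcl9 was present in all 3 sections.

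In SBP vs. I/R, 0 members were higher and 2 were lower (5.26%), beside 1.92% and 12.9% of all genes. A ratio above 1 was found for 11 of 38 genes (28.9%), beside 31.2% of all genes. The median of the members was -0.19 and that of all genes was -0.17. The 2 lower genes were Ifit2, at -1.06 (-1.78 to -0.39), and Oas1a, at -0.68 (-1.14 to -0.24). Bst2, at -0.56 (-0.68 to -0.43), and Trim30a, at -0.53 (-0.77 to -0.30), were below I/R by less than 1.5-fold. In the opposite direction, Ifit3 at 0.56 (0.24 to 0.87), Iigp1 at 0.51, Igtp at 0.39 (0.11 to 0.68), Rsad2 at 0.38 (0.13 to 0.64) and Ifit1 at 0.33 (0.03 to 0.64) had intervals above 0 without reaching 1.5-fold. TMM factors, which raised all ratios until the median of all genes was -0.01, gave 4 higher genes (Ifit3, Ifit3b, Iigp1 and Cxcl9) and 1 lower (Ifit2), a split of 80.0% higher against 0% before. All genes moved the same way, with 3.98% higher and 8.05% lower under TMM factors, beside 10.5% and 2.63% of the members. The genes of the set thus lay on both sides of I/R, calls in the upward direction appeared only with another scaling, weighting or choice of spots, and Ifit2 stayed lower under each scaling.

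In SBP vs. sham, 9 members were higher (23.7%) and 0 were lower, beside 5.29% and 3.03% of all genes, and the same 9 were higher under TMM factors. A ratio above 1 was found for 32 of 38 genes (84.2%), beside 61.1% of all genes, and the median was 0.32, beside 0.08. The 9 genes were Irf7, Zbp1, Isg15, Ifit1, Ifit3, Ifit3b, Oas1a, Ifitm1 and Cxcl10. Ifit1 at 0.77 (0.43 to 1.12) and Ifit3 at 0.93 (0.57 to 1.29) were called here and not in I/R vs. sham, where their ratios were 0.44 and 0.37. The difference between these ratios is the SBP over I/R ratio given above, which by CPM stayed below 1.5-fold for both. With TMM factors the SBP over I/R ratio of Ifit3 was 0.72 (0.40 to 1.03), a call.

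**Figure D2:**
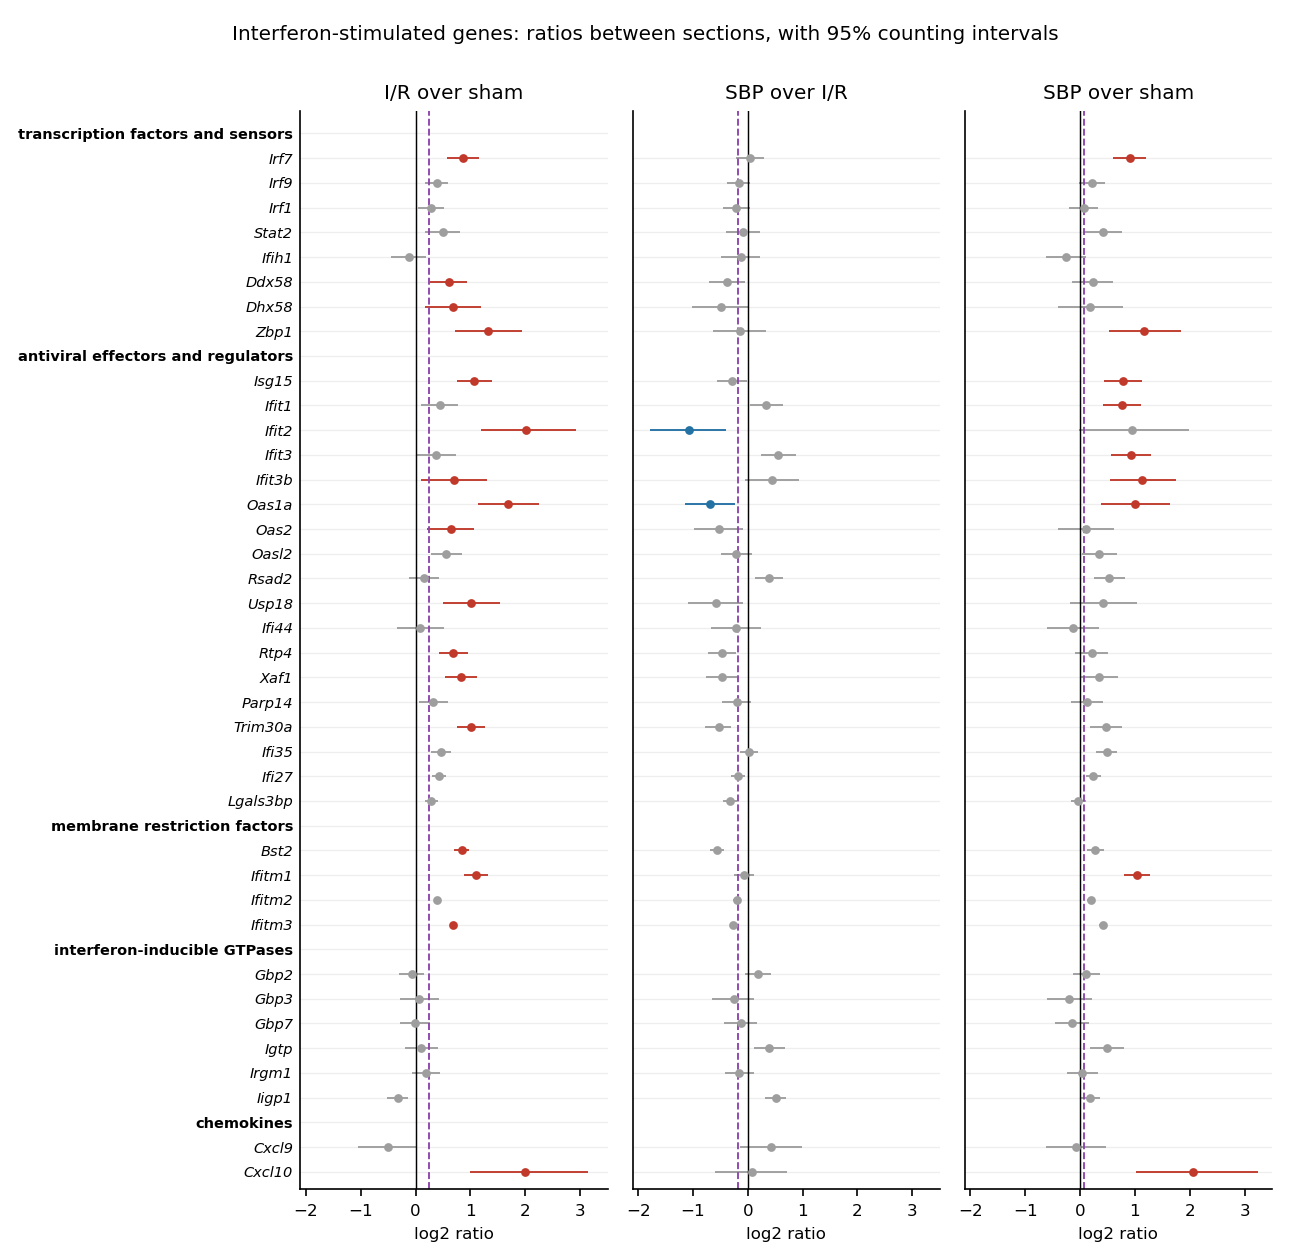
Log2 ratio between sections for each of the 38 genes (rows, grouped by kind), with I/R over sham on the left, SBP over I/R in the middle and SBP over sham on the right. Points are ratios and bars 95% counting intervals, red marks genes called higher (17, 0 and 9) and blue those called lower (0, 2 and 0), and the dashed line is the median of all genes (0.24, -0.17 and 0.08).

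The upstream genes were read from lists of the pathway. The interferon genes themselves were hardly counted. Of 21 listed, Ifng had 1 UMI in sham and 1 in SBP, Ifnz had 4 in I/R, and the others, the alpha genes and Ifnb1 among them, had 0 in every section, which allows up to 0.119, 0.0992 and 0.139 CPM in sham, I/R and SBP. Of 7 receptor subunits and kinases, 2 were higher in I/R than in sham (28.6%, beside 22.1% of all genes). Ifnar1 read 8.52, 13.7 and 9.94 CPM, at 0.68 (0.44 to 0.93), and Jak2 read 8.32, 15.4 and 9.01 CPM. In SBP vs. I/R, Jak2 alone was lower (14.3%, beside 12.9%), at -0.77 (-1.02 to -0.53). Single genes outside the set were not read under TMM factors, which lower every ratio of I/R over sham. Ifngr1 read 59.8, 61.7 and 57.2 CPM, and Ifngr2 72.9, 75.0 and 69.6 CPM, with ratios of I/R over sham of 0.04 for each. Ifnar2, the other chain of the type I receptor, read 23.5, 28.5 and 24.5 CPM. Its ratio of I/R over sham was 0.28 (0.12 to 0.43), not a call and near the 0.24 median of all genes. By CPM, a chain of the receptor for type I interferon was thus higher in I/R, while the other was not called. Both chains of the gamma receptor were near their sham level.

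Sensors and adaptors outside the set had larger ratios in both comparisons, a difference that was not tested. In I/R vs. sham, 10 of 13 were higher (76.9%, beside 22.1% of all genes), with a median of 0.94. In SBP vs. I/R 7 of 13 were lower (53.8%, beside 12.9%), with a median of -0.74, beside the -0.19 of the members. These calls too were made without TMM factors, which raise every ratio of SBP over I/R. Irf5, a factor of Toll-like receptor signalling, read 3.86, 12.1 and 5.96 CPM. Ikbke, a kinase that activates Irf3 and Irf7, read 1.15, 4.83 and 2.77 CPM. Tlr4 and Tlr7, receptors for bacterial lipid and for RNA, read 3.22, 8.003 and 4.11 CPM and 2.43, 4.33 and 2.22 CPM. The STING gene Tmem173 read 5.61, 10.9 and 8.14 CPM. The 7 genes below I/R were Tlr4, Tlr7, Myd88, Tbk1, Ikbke, Irf5 and Irf8, and the STING gene was not among them. A further list of 50 interferon-induced genes had 18 higher in I/R than in sham (median 0.33) and, in SBP vs. I/R, 2 higher (Ifi213 and Gbp5) and 6 lower (Ifi209, Oas3, Herc6, Slfn1, Slfn2 and Ms4a4c). In SBP vs. I/R, 4% of the list was higher, beside 1.92% of all genes. The share of 12.0% lower was near the 12.9% of all genes, and 36.0% were higher in I/R vs. sham, beside 22.1%.

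Markers of monocytes, neutrophils and macrophages moved in the same direction as the members in I/R vs. sham. All 7 monocyte markers (Ly6c2 and Ccr2 among them) were higher in I/R, and their summed level was 40.1, 163 and 82.1 CPM in sham, I/R and SBP. Of 7 neutrophil markers 6 were higher, with sums of 103, 333 and 244 CPM. Of 7 macrophage markers 3 were higher (42.9%, beside 22.1% of all genes), with sums of 419, 542 and 403 CPM. In SBP vs. I/R, 6 of 7 monocyte, 6 of 7 neutrophil and 3 of 7 macrophage markers were lower, beside 12.9% of all genes. No marker of these 3 lists was at 0 in any section. The core of the set, 17 genes of which most but not all are known chiefly as type I targets (Isg15, Ifit1, Ifit2, Ifit3, Ifit3b, Irf7, Oasl2, Oas1a, Oas2, Rsad2, Usp18, Rtp4, Xaf1, Ifi44, Cxcl10, Zbp1 and Dhx58), summed to 62.5, 102 and 93.8 CPM. Its log2 ratio was 0.71 (0.62 to 0.80) for I/R over sham and -0.12 (-0.21 to -0.04) for SBP over I/R, and the latter turned to 0.03 (-0.05 to 0.11) with TMM factors. In spots at or under the sham 95th percentile of the macrophage, monocyte, neutrophil and dendritic cell lists, which were 1895, 1245 and 1405 in sham, I/R and SBP, the core stood at 56.8, 75.9 and 67.9 CPM. The ratio of I/R over sham there was 0.42 (0.31 to 0.53), below that of the whole sections. The median of all genes was lower there too, at 0.02 against 0.24 in the whole sections. With TMM factors the core ratio of the whole sections was 0.48 (0.39 to 0.57). In the same spots 6 members were higher in I/R than in sham (Isg15, Ifit2, Oas1a, Usp18, Xaf1 and Cxcl10), beside 5.11% of all genes, and the median of all 38 was 0.11 beside 0.02. Of the members with SBP over I/R intervals above 0 in the whole sections, Ifit1 had a ratio of -0.19 (-0.63 to 0.25) in these spots. Rsad2 was at 0.02 (-0.31 to 0.35). Ifit3 at 0.53 (0.10 to 0.95), Igtp at 0.58 (0.21 to 0.95) and Iigp1 at 0.37 (0.14 to 0.60) kept intervals above 0 without reaching 1.5-fold. Ifitm1 was higher at 0.61 (0.31 to 0.92), which is 2.63% of the members, beside 2.51% of all genes. Ddx58, Ifit2 and Cxcl10 were lower (7.89%, beside 3.31%). This division into spots was chosen after the data had been seen.

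Within each section, the core level was set against the marker lists spot by spot, with marker-high spots defined as those above the sham 95th percentile of the list. In macrophage-high spots the core stood at 108, 240 and 165 CPM in sham, I/R and SBP, against 59.9, 84.9 and 90.6 CPM in the other spots. The log2 ratio was 0.85 (0.59 to 1.1003) in sham, 1.498 (1.38 to 1.61) in I/R and 0.87 (0.63 to 1.11) in SBP. In monocyte-high spots it was 0.96 (0.71 to 1.20), 1.16 (1.06 to 1.27) and 1.74 (1.60 to 1.88), so that I/R had its highest ratio by the macrophage list and SBP by the monocyte list. The 276 monocyte-high spots of SBP carried 11.7% of all UMIs and 30.7% of core UMIs. The neutrophil, dendritic cell, and T and NK cell lists also had ratios above 0 in every section. In sham, I/R and SBP they were 0.58, 0.92 and 0.99 by the neutrophil list and 0.71, 1.04 and 0.81 by the dendritic cell list. The T and NK cell list gave 1.17, 0.69 and 1.11. The B cell list gave 0.70 (0.27 to 1.095), 0.19 (-0.13 to 0.50) and -0.89 (-1.61 to -0.26). For the T and NK cell and B cell lists the sham 95th percentile was 0, so any spot with a marker UMI counted as high. These were 41, 92 and 44 spots and 40, 58 and 33 spots in sham, I/R and SBP. The smooth muscle and pericyte list gave 0.40, 0.31 and -0.15. Endothelium-high spots also had a higher core level, with ratios of 0.46, 0.91 and 0.48, and fibroblast-high spots had ratios of 0.77, 0.61 and 0.58. With mitochondrial genes left out of the totals the ratios were smaller. By the macrophage list they were then 0.57, 0.99 and 0.60, by the monocyte list 0.71, 0.70 and 1.51, and by the endothelium list 0.40, 0.56 and 0.34. By the fibroblast list they were 0.52 in sham, 0.20 (-0.02 to 0.42) in I/R and 0.22 (-0.10 to 0.53) in SBP, with intervals that held 0 in both injured sections. For cardiomyocyte-high spots the ratio was 0.05 (-0.30 to 0.39) in sham, and the 9 such spots in I/R and 20 in SBP were too few to place it. Spots mix cells, so these ratios do not assign the transcripts to a cell type.

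**Figure D3:**
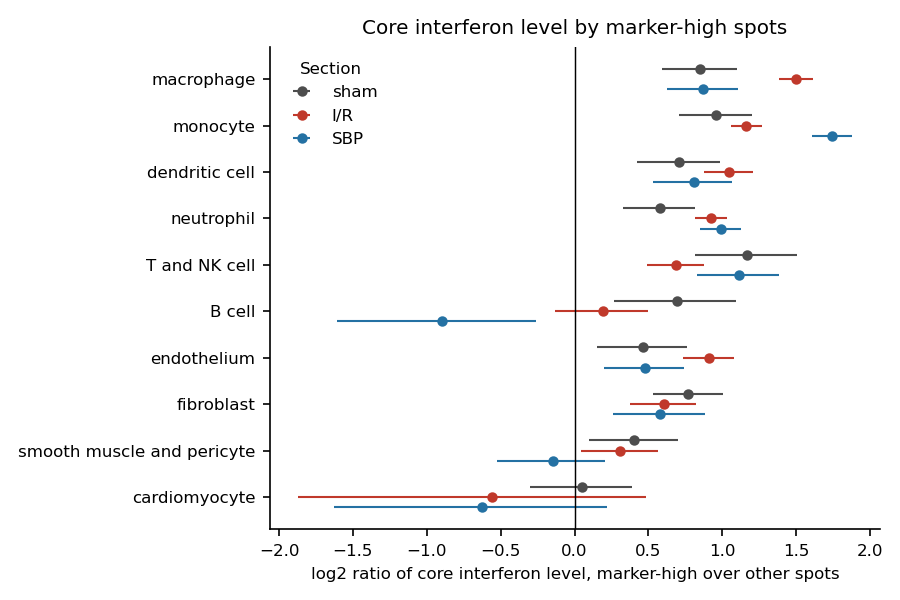
Log2 ratio of the summed level of 17 core interferon genes in spots above the sham 95th percentile of a marker list over all other spots, for 10 lists (rows) and 3 sections (colours), with 95% counting intervals. The ratios by the macrophage list (0.85, 1.498 and 0.87) and the monocyte list (0.96, 1.16 and 1.74) lie above 0 in every section, and intervals are wide where few spots pass, as for cardiomyocyte markers in I/R.

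Ankrd1, a stretch-responsive gene of heart muscle, was used to divide each section. A spot was Ankrd1-high above the sham 95th percentile of 27.0 Ankrd1 UMIs per 10000 UMIs, which gave 112 of 2234 spots in sham, 479 of 2082 in the I/R section and 326 of 1960 in the SBP section. Within 10% of this limit lay 69, 165 and 126 spots in sham, I/R and SBP. In sham, 18 members were higher in these spots (47.4%) and 0 lower, beside 18.5% and 1.77% of all genes. In I/R, 3 were higher (7.89%) and 1 was lower, beside 11.6% and 3.13%. In SBP, 12 were higher (31.6%) and 1 was lower, beside 12.2% and 2.92%. With mitochondrial genes left out of the totals, the members higher were 12 in sham (31.6%, beside 14.0% of all genes), 2 in I/R (5.26%, beside 6.37%) and 5 in SBP (13.2%, beside 9.03%). The member medians were 0.66, 0.15 and 0.45 in sham, I/R and SBP, and those of all genes were 0.35, 0.23 and 0.21. Without the 5 spots of each section richest in core UMIs, 18.4% of the members were higher in sham, beside 17.3% of all genes. In SBP 15.8% then were, beside 12.1%. The member medians were then 0.48 in sham and 0.32 in SBP, beside 0.33 and 0.21 for all genes. With all spots kept, the members thus leaned toward Ankrd1-high spots in sham and SBP more than all genes did, and in I/R they did not. Monocyte markers followed the same order, with 5 of 6 higher in the Ankrd1-high spots of sham, 1 of 7 in I/R and 5 of 7 in SBP, as did neutrophil markers with 6 of 6, 1 of 7 and 5 of 7. Ankrd1-high spots also had a lower mitochondrial share of UMIs than the other spots, at 45.2% against 48.9% in sham, 40.6% against 45.7% in I/R and 43.9% against 46.9% in SBP. The part of either in these counts was not tested.

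Single genes showed the same division. Isg15 read 9.76 CPM in Ankrd1-high and 4.38 in other spots of sham, 10.0 and 10.1 in I/R, and 11.7 and 7.45 in SBP. Ifit1 read 11.4 and 4.21 CPM in sham, 5.02 and 6.93 in I/R, and 11.5 and 7.34 in SBP. Bst2 was above in all 3 sections, at 53.1 and 26.6 CPM in sham, 64.0 and 46.3 in I/R, and 53.8 and 30.5 in SBP, and only in I/R was it not called, at 0.47 (0.31 to 0.62). The 3 genes called in I/R were Ifit2 at 0.91 (0.19 to 1.62), Oas1a at 0.69 (0.17 to 1.20) and Ifi27 at 0.72 (0.55 to 0.88). Of these 3, Ifi27 alone stayed called higher at the sham 90th and 99th percentiles of Ankrd1 and when spots were thinned first. At the 90th percentile Dhx58, Ifit3 and Bst2 were called in place of Ifit2 and Oas1a. Rsad2 was lower in the Ankrd1-high spots of I/R, at 5.26 against 10.1 CPM and -0.93 (-1.44 to -0.46), and higher in those of SBP, at 15.8 against 10.4 CPM and 0.60 (0.16 to 1.02). Cxcl10 had 8 UMIs in the Ankrd1-high spots of sham and 2 elsewhere, a log2 ratio of 5.66 (3.33 to 8.93). Of these 8, 5 lay in 1 spot and 2 in another. Without the 5 spots of each section richest in core UMIs, Isg15 and Ifit1 were called in neither sham nor SBP. Cxcl10 was then not called in sham, and Bst2 stayed called in both sections. Ddx58 was the gene called lower in SBP, at 3.32 against 5.93 CPM, with an upper bound just under 0. The GTPases had medians of 0.30, -0.12 and 0.06, with Gbp3 in sham as the only call among the 6.

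The core list summed to 102 CPM in Ankrd1-high spots and 59.3 in other spots of sham, 104 and 102 in I/R, and 132 and 85.3 in SBP. The log2 ratio was 0.79 (0.56 to 1.01) in sham, 0.03 (-0.08 to 0.15) in I/R and 0.63 (0.49 to 0.78) in SBP. The I/R ratio changed sign with the Ankrd1 limit. It was 0.17 (0.06 to 0.27) at the sham 90th percentile and -0.31 (-0.49 to -0.13) at the 99th. At these limits the ratios were 0.59 and 0.69 in sham, and 0.62 and 0.71 in SBP. The values that follow use the sham 95th percentile. Read between sections, the core was higher in I/R than in sham by 0.78 (0.68 to 0.87) in other spots and by 0.02 (-0.21 to 0.26) in Ankrd1-high spots. For SBP over I/R it was 0.35 (0.19 to 0.51) in Ankrd1-high spots and -0.25 (-0.35 to -0.16) in other spots. Single Ankrd1-high spots held 25, 22 and 12 of the 189 core UMIs counted in such spots of sham. In I/R a single spot held 34 of 849, and in SBP single spots held 42, 34 and 17 of 519. The values 0.02 and 0.35 thus rest in part on few spots, and they were not computed without them. Without the 5 spots of each section that held the most core UMIs, the within-section ratio was 0.31 (0.04 to 0.57) in sham. It was 0.04 (-0.08 to 0.16) in I/R and 0.42 (0.26 to 0.58) in SBP. The members called higher were then 7 in sham (18.4%, beside 17.3% of all genes) and 6 in SBP (15.8%, beside 12.1%), Rsad2 became lower in sham, and its ratio in SBP was -0.0053.

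**Figure D4:**
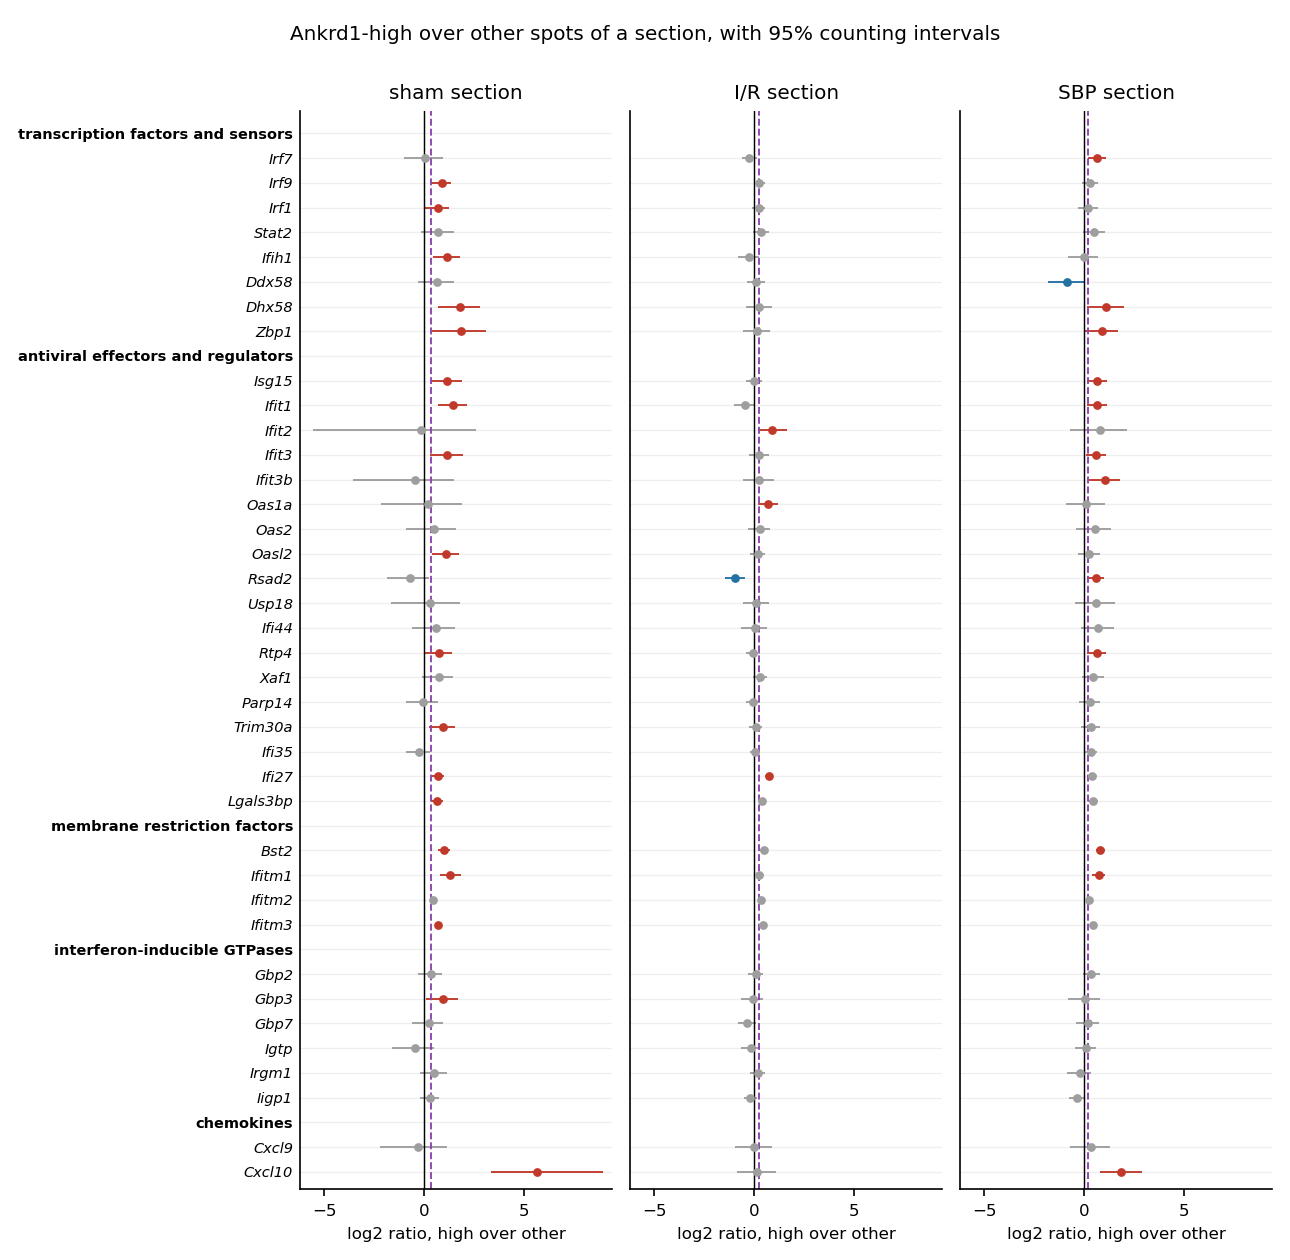
Log2 ratio of the level in Ankrd1-high spots over that elsewhere for each of the 38 genes (rows, grouped by kind) in the sham, I/R and SBP sections. Points are ratios and bars 95% counting intervals, red marks genes called higher (18, 3 and 12) and blue those called lower (0, 1 and 1), and the dashed line is the median of all genes (0.35, 0.23 and 0.21).

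Core UMIs were sparse in single spots. After each spot was thinned to 6500 UMIs, which left out 132 sham, 202 I/R and 213 SBP spots with fewer, at least 1 core UMI was found in 31.3% of sham, 41.2% of I/R and 35.9% of SBP spots. The Clopper-Pearson intervals were 29.3% to 33.3%, 39.0% to 43.5% and 33.6% to 38.2%. Thinned to 3000 UMIs, the shares of I/R and SBP were closer, at 24.6% and 23.2%, with 15.3% in sham. At least 3 core UMIs were found in 33 spots of sham (1.57%), 90 of I/R (4.79%) and 68 of SBP (3.89%). Their intervals were 1.08% to 2.20%, 3.87% to 5.85% and 3.04% to 4.91%. Spots of a section are not replicates, so these intervals describe each section and do not compare the conditions. The 1% of thinned spots with the most core UMIs held 10.4%, 11.8% and 16.8% of them in sham, I/R and SBP. The shares that random scatter of so few UMIs would give were not computed.

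The richest spots carried several members at once. Before thinning, the spot with the most core UMIs held 25, 34 and 42 in sham, I/R and SBP, where the median spot of the section held 0, 1 and 1. In sham it had UMIs of 11 core genes, with 5 each of Ifit1 and Cxcl10, and those 5 stand against 10 Cxcl10 UMIs in the whole section. The I/R spot had UMIs of 15 core genes, led by Isg15 with 7 and Ifit3 with 6. The SBP spot had UMIs of 9, led by Rsad2 with 16, Ifit1 with 11 and Ifit3 with 7. Of the next 3 SBP spots, 2 held 8 Rsad2 UMIs each and 1 held 10 of Ifit1. Without the 5 richest spots of each section, the SBP over I/R ratio was 0.20 (-0.08 to 0.47) for Rsad2, 0.14 (-0.19 to 0.46) for Ifit1 and 0.47 (0.14 to 0.80) for Ifit3. These spots were picked, after the data had been seen, by UMIs that include those of the 3 genes, so leaving them out lowers the levels of these genes by construction.

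The genes most like the core across spots were named by their level in core-rich spots, taken with a limit chosen after seeing the data as thinned spots with at least 3 UMIs of core genes other than the gene in question. In I/R, Irf7 had 36 UMIs in such spots and 96 in the rest, a log2 ratio of UMIs per spot of 3.10 (2.50 to 3.66). Oasl2 had 2.88, Oas1a 3.05, Zbp1 3.498 and Cxcl10 4.52 in I/R. In SBP, Ifit1 reached 4.18 and Rsad2 3.34. Oas1a at -0.26 (-5.61 to 2.32) and Rtp4 at -0.13 (-2.43 to 1.46) had only 1 and 3 UMIs in such spots, too few to place them. Among genes outside the core, I/R gave 2.67 for Stat2, 1.98 for Bst2, 1.34 for Ifitm1, 1.24 for Ifitm3, 1.49 for Lgals3bp, 0.77 for Ifi27 and 0.45 for Gbp7. In I/R the 17 core genes reached 1.84 or more, and Stat2, Bst2 and Gbp3 (1.88) stood above the lowest of them, Xaf1, so the core was not set apart from other members. The points share their libraries and spots.

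**Figure D5:**
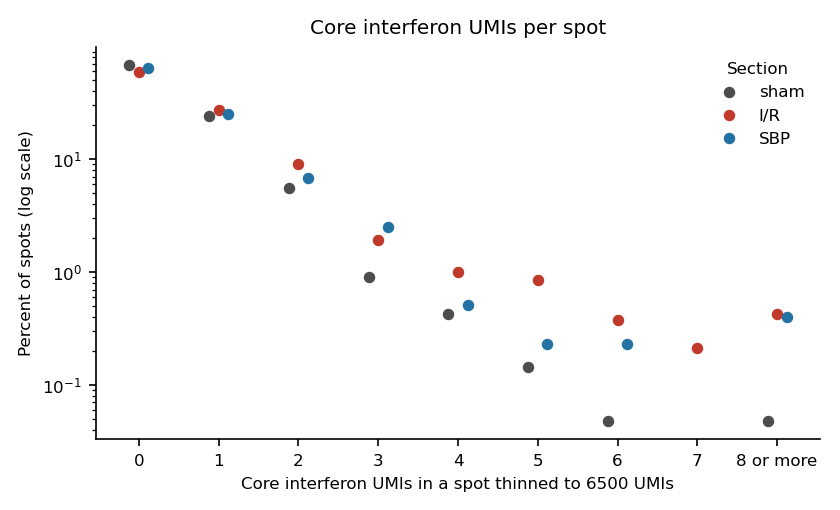
Percent of spots (log axis) with each number of UMIs of the 17 core interferon genes after thinning to 6500 UMIs, for the sham, I/R and SBP sections. Points are shares of spots, the last position takes 8 or more, and no point is drawn at 0 spots, with 3 or more core UMIs in 1.57% of sham, 4.79% of I/R and 3.89% of SBP spots.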

How the data were processed

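Spatial transcriptome libraries (10x Visium) were made from 1 frozen heart section of each condition. The authors deposited raw UMI counts per gene and spot, a matrix for each section. The submitters' processing notes name Space Ranger 1.3.0 and mm10. The methods of the study name an earlier Space Ranger release and a human reference, while the genes in the files are mouse genes. Free RNA and RNA spread between neighbouring spots were not modelled.

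UMIs were summed over spots with at least 200 detected genes and divided by the section's total to give CPM. Mitochondrial genes took a large and unequal share of UMIs, so CPM of other genes moves with it. Genes with at least 20 UMIs over the 3 sections were compared. Intervals were exact Poisson (levels), Clopper-Pearson (shares) and exact conditional binomial (ratios) at 95%, and a gene was called at 1.5-fold or more with an interval without a ratio of 1. No p-value was computed. The intervals were tried only on simulated section sums with counting error alone, so clustering of UMIs in spots and differences between mice were not covered. With 10645 to 14672 UMIs in the median spot, single genes were read as section sums. Every member was named, and of other genes the marker lists, the receptors and those of the pathway lists that were called, while the interferon genes were added after their values were seen. To compare shares of spots, spots were thinned to 6500 UMIs. Members, lists and thresholds were chosen with earlier results of these data known. Gene positions came from GENCODE M21 and promoter windows from RefSeq (GRCm38.p6). No promoter window was given for Dhx58, Zbp1, Mx1, Oas2, Usp18, Rtp4, Parp14, Ifi27 and Iigp1.

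The alternatives tried were leaving out the 13 mitochondrial genes, TMM factors (edgeR), median-of-ratios factors (DESeq2), equal weight for each spot, other filters on spots and genes, a 2-fold limit, other Ankrd1 limits and thinning depths, and sums without the richest spots. Sums without the 5 spots richest in core UMIs and sums over spots under the myeloid marker limits were added after seeing the data. Analyses used Python 3.11.15, numpy 2.4.6, scipy 1.17.1, pandas 2.3.3, matplotlib 3.10.9, R 4.3.3, edgeR 4.0.16 and DESeq2 1.42.0. The images and spot positions were not used here.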

Additional observations from a re-analysis of the deposited data

Results flagged for a closer look

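Rsad2, the gene of the antiviral enzyme viperin, went opposite ways in the 2 injured sections. In Ankrd1-high spots its level over that of the remaining spots was -0.93 for I/R and 0.60 for SBP on the log2 scale. The difference was not tested, since there is 1 section for each condition. Without the 5 spots of each section that held the most core UMIs, the SBP ratio was -0.0053, and Rsad2 was still lower in the Ankrd1-high spots of I/R. Those spots were chosen, after the data had been seen, by UMIs that include those of Rsad2. The spot with the most core UMIs in SBP was Ankrd1-high and held 16 of the 247 Rsad2 UMIs of that section.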

How the results depend on the processing

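No paired analysis was possible because there is 1 section a condition, which also leaves no replicate to leave out. Sections differ in depth, and genes with few UMIs, such as Cxcl10 and Ifit2, carry wide intervals because their counts are small.

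For I/R over sham, leaving out mitochondrial genes, TMM factors and median-of-ratios factors each gave 11 members higher (28.9%, beside 16.6%, 12.7% and 12.5% of all genes). Each also gave 1 lower (2.63%, beside 5.34%, 8.54% and 8.74%). A 2-fold limit gave 8 higher (21.1%, beside 9.47%). Spots under the myeloid marker limits gave 6 higher (15.8%, beside 5.11%), with a median of 0.11 and Dhx58 at -0.11. For SBP over I/R, leaving out mitochondrial genes gave 1 higher (2.63%, beside 2.41% of all genes). TMM and median-of-ratios factors gave 4 higher (10.5%, beside 3.98% and 4.04%) and 1 lower (2.63%, beside 8.05% and 7.97%). Equal weight for each spot gave 2 higher (5.26%, beside 2.18%) and 6 lower (15.8%, beside 17.9% of all genes). A 2-fold limit gave 1 lower (2.63%, beside 5.45%). Leaving out the 1% of spots richest in each gene gave 7 lower (18.4%, beside 19.9%). Spots under the myeloid limits gave 1 higher (2.63%, beside 2.51%) and 3 lower (7.89%, beside 3.31%). For SBP over sham, a 2-fold limit gave 4 higher (10.5%, beside 2.38%). Leaving out the richest 1% of spots gave no value for Ifit2 in I/R over sham and for Cxcl10 in both comparisons with sham, since no UMI was left in sham.

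For Ankrd1-high over other spots in sham, the sham 90th percentile gave 1 lower (2.63%, beside 1.64% of all genes). The sham 99th percentile gave 5 higher (13.2%, beside 10.1% of all genes), with Isg15 at -0.24, Ifit3 at -0.0705 and Gbp3 at -0.26. Leaving out the 5 spots richest in core UMIs gave 7 higher (18.4%, beside 17.3%) and 1 lower (2.63%, beside 1.71%). In I/R, leaving out mitochondrial genes gave 2 lower (5.26%, beside 4.89% of all genes). The 99th percentile gave 1 higher (2.63%, beside 6.79%) and 2 lower (5.26%, beside 2.96%), with Oas1a at -0.39. Thinning before Ankrd1 was read gave 1 higher (2.63%, beside 13.8%). In SBP, leaving out mitochondrial genes gave 5 higher (13.2%, beside 9.03% of all genes), and the 99th percentile 6 higher (15.8%, beside 7.92%). The 90th percentile, thinning and equal weight gave 0 lower, beside 2.53%, 2.69% and 3.23% of all genes. Leaving out the 5 richest spots gave 6 higher (15.8%, beside 12.1%) and 0 lower (beside 2.94%), with Rsad2 at -0.0053. The causes were not tested.

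Thinned to 3000 UMIs, 15.3%, 24.6% and 23.2% of sham, I/R and SBP spots held at least 1 core UMI, and 0.361%, 1.80% and 1.71% at least 3. Unthinned, the shares were 43.4%, 64.2% and 50.8%, and 5.42%, 16.6% and 10.3%. The counts of members higher in SBP than in sham stayed within 1.5 times of 9 under every other alternative.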
